A study of Daphnia magna with 24 samples.

Results

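The features described here are 155 spots of a Daphnia magna array. They lay above control in water from below the mine tailings at Walker Mine. In water from Little Grizzly Creek their means lay little above control, near it or below it. The features were chosen from measured values. A feature is a member if all 3 tailings exposures were measured and above 0, if their mean log2 ratio was at least 0.4, and if the mean over the Little Grizzly Creek exposures was below 0.3. Of 4992 features with P identifiers and 2688 with A identifiers on the array, 6504 had a value in at least 2 exposures at each of the 4 sites. Of these, 5801 had all 3 tailings exposures, 1239 had them all above 0, and 376 also reached the tailings mean. The Little Grizzly Creek threshold then divided the 376 into 155 members, or 41.2%, and 221 features that met the tailings part of the rule only, which serve as the comparison set. Members made up 2.38% of the tested features.

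Daphnia magna is a freshwater crustacean that filters algae from the water and is a standard animal in toxicity testing. Copper is an essential cofactor of many enzymes, but dissolved copper is toxic to water fleas, in which it disturbs sodium uptake and causes oxidative damage. Drainage from abandoned copper mines carries dissolved metals into streams, and copper-laden tailings can go on releasing them. COMBO is a defined freshwater medium made for rearing algae and zooplankton.

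The waters were tailings water, Little Grizzly Creek water, water from downstream of the mine portal, and water from upstream of the mine, each with 3 exposures. The design text says that the sites differed in copper and gives no concentrations, so the sites were not ordered by copper. In every exposure, adult females aged 14 to 16 days from a genetically homogeneous culture spent 24 h at 23.5 °C in the field water, and 10 to 15 whole animals were pooled. The control on every array was RNA of unexposed animals in COMBO medium. Since whole animals were pooled, a change in the size of a tissue and a change in RNA per cell cannot be told apart.

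Each exposure was hybridised on 2 arrays with the Cy3 and Cy5 dyes exchanged, so the 24 arrays gave 12 exposures. The value of a feature in an exposure is the mean log2 ratio of its pair of arrays, likely exposed over control, and 0 means no difference from control. If the deposited ratios run the other way, every sign given here turns round. Arrays held 5106 to 7548 values each. Their medians lay between -0.0265 and 0.0177, and their SD across features between 0.297 and 1.05. None of the feature identifiers matched a gene in the RefSeq table, so members are described by identifier and no gene, role or sequence is given.

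The site means show how close the members lay to the thresholds that chose them. Their tailings means had a median of 0.51 (quartiles 0.45 and 0.69, range 0.40 to 1.46), and 11 members reached a mean of 1. Little Grizzly Creek means had a median of 0.12 (quartiles 0.054 and 0.19, range -1.13 to 0.299), and 26 of 155 were below 0. Tailings minus Little Grizzly Creek had a median of 0.40, with a range of 0.12 to 1.88, and reached 1 in 8 members. Over all tested features the medians were -0.0073 for tailings, -0.0025 for Little Grizzly Creek and 0.010 for the difference. The comparison set had larger tailings values, with a median of 1.01, and a Little Grizzly Creek median of 0.77. The member nearest the tailings threshold had a mean of 0.4002, and the nearest feature below it had 0.3986. At the other threshold, the highest Little Grizzly Creek mean among members was 0.299, and the lowest among the comparison set was 0.305. Neither threshold fell in a gap between features.

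**Figure D1:**
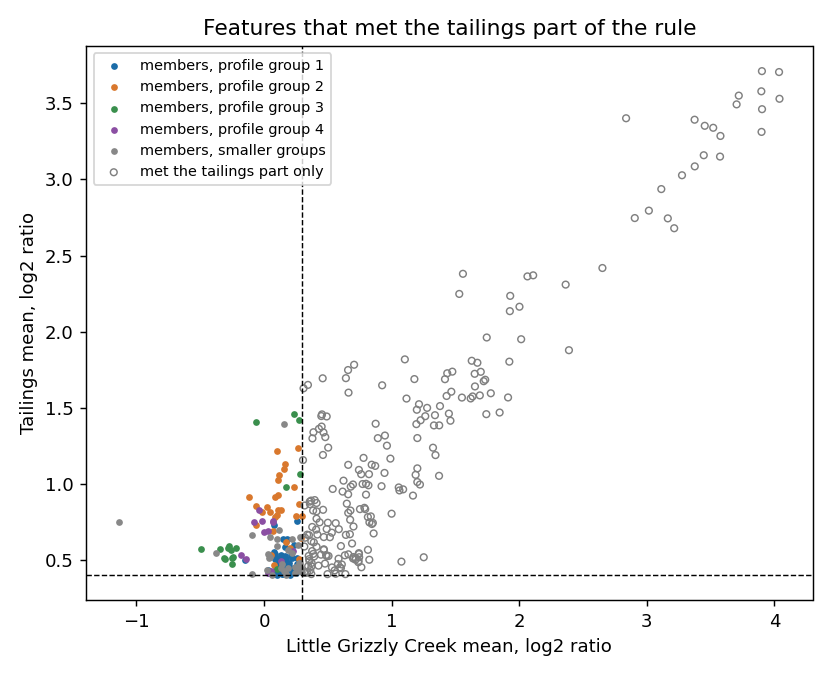
Mean log2 ratio in tailings water (vertical axis) against the mean in Little Grizzly Creek water (horizontal axis) for the 376 features that met the tailings part of the rule. Filled points are the 155 members, coloured by profile group, open points are the comparison set of 221 features, and dashed lines mark the thresholds of 0.3 and 0.4. Open points continue directly from the filled ones across the vertical line, and the largest tailings means belong to open points.

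Over single exposures, the members' medians in tailings exposures 1, 2 and 3 were 0.48, 0.55 and 0.56. In Little Grizzly Creek exposures 1, 2 and 3 the medians were 0.16, 0.073 and 0.17. Tailings lay above Little Grizzly Creek of the same exposure number by medians of 0.34, 0.50 and 0.31, in 151 of 155, 140 of 155 and 135 of 139 members with both values. Of 139 members with all 3 pairs, 122 had tailings above Little Grizzly Creek in each number, against 20.3% of tested features. The tailings values of 83 of 155 members were all above their Little Grizzly Creek values, against 5.95% of tested features, and the rule itself favours this. By the limma test against control, 98 members passed an adjusted p of 0.05 in tailings water, where 6.12% of tested features were called higher. In Little Grizzly Creek water limma called 0 members higher (2.17% of features), and 14 at an unadjusted p of 0.05 (5.63%), where it called 112 of the 221 features of the comparison set at the adjusted threshold. The direct comparison of tailings with Little Grizzly Creek called 0 of 6504 features with limma at an adjusted p of 0.05, members included, and 0.0% in either direction. At an unadjusted p of 0.05, it called 215 features, 3.31%. In the higher direction these were 2.91% of features and included 88 members. Exposure numbers deviated together in tailings and Little Grizzly Creek water, and with the number as a block, limma again called 0 features, with 399 (6.13%) at an unadjusted p of 0.05. Nothing is read from these counts, because the same values chose the members.

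**Figure D2:**
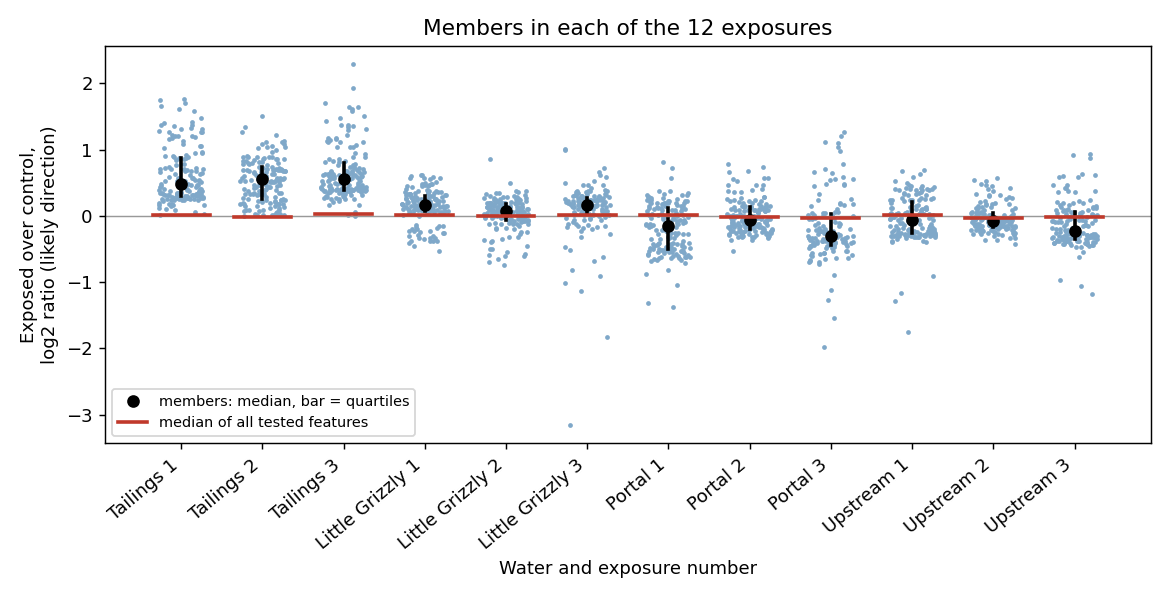
Log2 ratio of the 155 members in each of the 12 exposures, by water and exposure number. Each pale point is a member, black points are the members' medians with bars at the quartiles, and red lines are medians over all tested features. The tailings medians of 0.48 to 0.56 stand above the others, while portal and upstream medians are below 0 in all 3 exposures of each water.

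How far the pattern holds in values that did not choose the members was read by applying the rule to 2 exposure numbers and looking at the number held out. With number 1 held out, the rule chose 261 features, 119 of them members. In held-out exposure 1 their medians were 0.25 for tailings and 0.066 for Little Grizzly Creek. The held-out difference was 0.16 in the median and above 0 in 202 of 260 features (77.7%, against 53.7% of all tested features), while the same features had a median difference of 0.43 in the exposures that chose them. With number 2 held out, 151 features were chosen, 71 of them members, and their held-out medians were 0.12 for tailings and -0.051 for Little Grizzly Creek. Their difference was 0.18 in the held-out number and 0.61 in the choosing ones, and 115 of 149 features were above 0, or 77.2% against 54.0% of all. With number 3 held out, 219 features were chosen, 123 of them members, with held-out medians of 0.37 for tailings and 0.20 for Little Grizzly Creek. The difference was 0.17 in the held-out number and 0.44 in the choosing ones, and 144 of 200 features were above 0, or 72% against 57.1% of all. The held-out tailings values were above 0 in 171 of 260, 93 of 150 and 166 of 211 features, or 65.8%, 62% and 78.7%, against 51.7%, 46.0% and 54.8% of all tested features. The difference kept its direction in each held-out number and was less than the values in the choosing exposures each time.

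**Figure D3:**
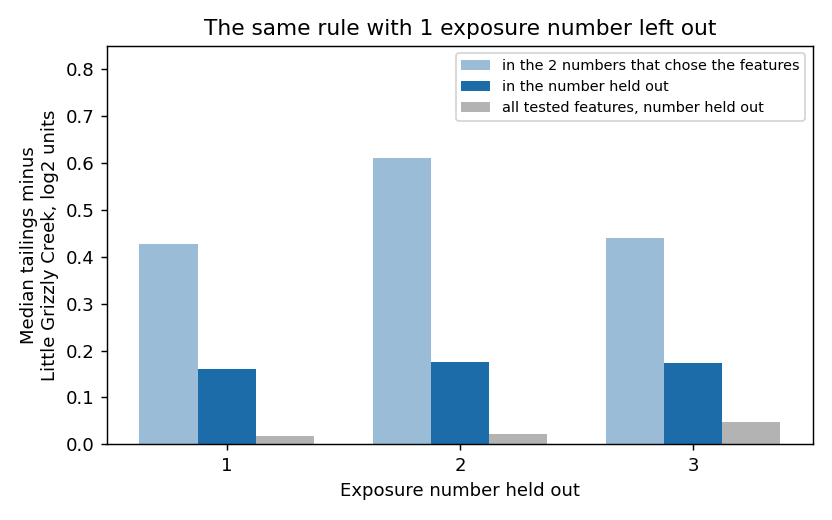
Median tailings minus Little Grizzly Creek log2 ratio (vertical axis) for features chosen by the same rule with 1 exposure number left out (horizontal axis). Pale bars are the 2 numbers that chose the features (0.43, 0.61 and 0.44), dark bars the number held out (0.16, 0.18 and 0.17), and grey bars all tested features in the number held out.

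The same could be done with the dye orientation, although both arrays of an exposure hold the same extracts. Features chosen on the arrays with exposed animals in Cy5 numbered 101, of which 68 were members. On the other orientation they had a median tailings mean of 0.56 and a median Little Grizzly Creek mean of 0.082. The reverse choice gave 147 features, 82 of them members, with medians of 0.52 and 0.062. Over all tested features, the tailings and Little Grizzly Creek medians were -0.014 and -0.020 on the Cy3 arrays and -0.0076 and -0.0083 on the Cy5 arrays. Only 53 features met the rule on both orientations separately.

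Members did not share one profile. The 155 features were joined by the correlation of their values over the 24 arrays, up to an average correlation of 0.6. This gave 4 groups of 10 or more, with 62, 29, 17 and 13 members, and left 34 members in smaller groups. The grouping used all values, so the groups describe the members and are not tested. Joining up to a correlation of 0.7 or 0.5 gave the same 62 members as the largest group.

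Profile group 1, the 62 members, had nearly identical profiles, with a median correlation between members of 0.948. It had exposure medians of 0.32, 0.69 and 0.39 in tailings water and 0.15, 0.081 and 0.20 in Little Grizzly Creek water. In portal water the medians were -0.50, -0.16 and -0.34, and in upstream water -0.25, -0.17 and -0.33. P3AD9, chosen after its values were seen as the member closest to the group's median profile, had 0.27, 0.77 and 0.47 in tailings exposures 1, 2 and 3 and 0.081, 0.13 and 0.25 in Little Grizzly Creek water. Its portal values were -0.61, -0.16 and -0.33, and its upstream values -0.24, -0.18 and -0.39. All 3 tailings values were above the Little Grizzly Creek values, which in turn were above all 6 portal and upstream values.

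In group 1 the arrays of a pair often had opposite signs. P3AD9 had -0.099 with exposed animals in Cy5 and 0.64 with exposed animals in Cy3 in tailings exposure 1. In tailings exposure 3 it had -0.25 and 1.19, and in tailings exposure 2 both were above 0, at 0.96 and 0.57. Over the group, the median Cy5 value was -0.28 and the median Cy3 value 1.05 in tailings exposure 3, where 9 and 62 of the 62 members were above 0. Little Grizzly Creek exposures 1 and 3 divided in the same way, with Cy5 medians of -0.34 and -0.48 and Cy3 medians of 0.61 and 0.88. Portal exposure 3 had a Cy5 median of -1.16 and a Cy3 median of 0.38, and upstream exposure 3 had -0.87 and 0.21. In exposures numbered 2 the order was turned, with the Cy5 median above the Cy3 median at all 4 sites. Portal exposure 1 was the exception among exposures numbered 1 and 3, with medians of -0.65 and -0.35 and with 7 and 5 members above 0. In the other 7 of these exposures the group medians of the arrays had opposite signs.

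Across all pairs of arrays, signs were opposite in 409 of 738 (55.4%) in group 1 and in 200 of 1062 (18.8%) in the other 93 members. The share was 11.0% in the comparison set and 30.6% in all tested features. The median absolute difference between the arrays of a pair was 0.528 log2 units in group 1, 0.155 in the other members and 0.178 in all tested features. All 6 tailings arrays were above 0 in 9 of 62 members of group 1, in 75 of 93 other members, and in 211 of 221 features of the comparison set. So for most of group 1, the tailings value above 0 was a property of the dye-averaged value and not of each array.

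The difference between arrays was tested with limma on all features for each exposure number, over the 4 sites, a test added after the data were seen. It does not use the mean of a pair, which the rule used. The profile groups, however, were formed on the single arrays, so this difference helped to form them. The counts by group are therefore a description. In exposures numbered 1, 724 of 6504 features (11.1%) were lower with exposed animals in Cy5 than in Cy3 at an adjusted p of 0.05, among them 52 members, 50 of them in group 1, and 684 (10.5%) were higher, among them 5 members. In exposures numbered 3, 1039 of 6315 features (16.5%) were lower, among them 68 members, 58 of them in group 1. More features, 1732 (27.4%), were higher there, among them 22 members, 9 of them in group 2, 8 in group 3 and 0 in group 1. In exposures numbered 2, only 45 features (0.692%) were lower, and 120 (1.85%) were higher, among them 2 members. The group 1 medians of this difference, Cy5 minus Cy3, were -0.60, 0.24 and -1.33 in numbers 1, 2 and 3. Averaging both arrays cancels a dye effect of equal size on both, and whether this one was equal was not tested.

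Features with the same profile were not limited to the members. Correlations over 0.9 with the median profile of group 1 were found in 140 tested features, of which 50 were members, 2 were in the comparison set and 88 in neither. In those 88 the median tailings mean was 0.29, and 86 had all 3 tailings exposures above 0 but a mean below 0.4. Their portal and upstream medians were -0.26 and -0.19. The tailings threshold thus ran through this set of like features.

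**Figure D4:**
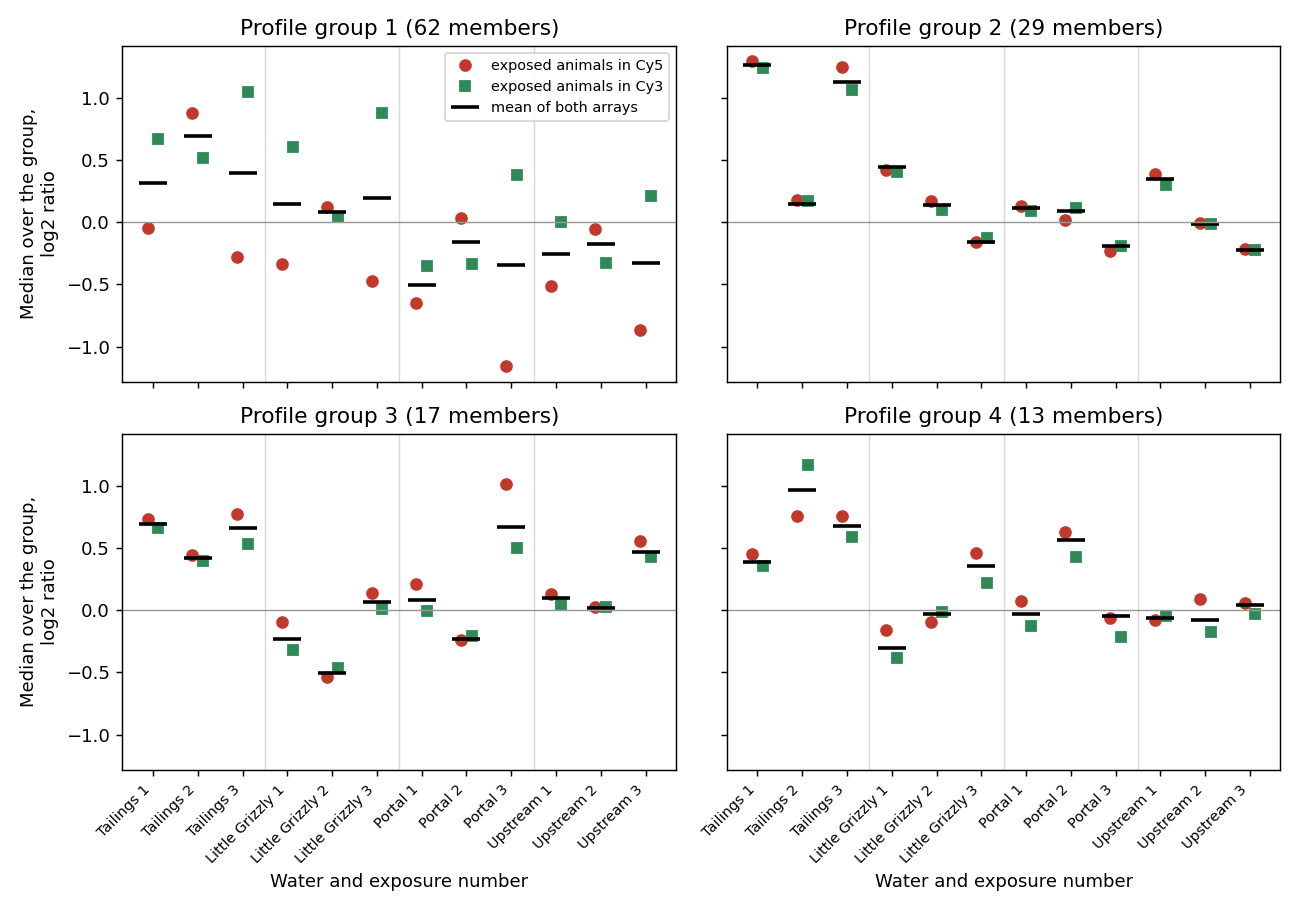
Median log2 ratio over each of the 4 profile groups (62, 29, 17 and 13 members) in the 12 exposures, by water and exposure number. Red circles are arrays with exposed animals in Cy5, green squares arrays with exposed animals in Cy3, and black bars the value averaged over both arrays. In group 1 the circles and squares lie on opposite sides of 0 in tailings exposure 3, at -0.28 and 1.05, while in group 2 they nearly coincide.

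Profile group 2, 29 members, had its high values in tailings exposures 1 and 3. Exposure medians were 1.26, 0.15 and 1.13 in tailings water, and the highest tailings exposure was number 1 in 16 members, number 3 in 13 and number 2 in 0. Little Grizzly Creek medians were 0.44, 0.13 and -0.16, with all 29 members above 0 in exposure 1. In portal water the medians were 0.11, 0.091 and -0.19, and in upstream water 0.34, -0.018 and -0.23. P1BH3, chosen after its values were seen as closest to this group's median profile, had 1.26, 0.20 and 1.03 in tailings water, 0.57, -0.047 and -0.19 in Little Grizzly Creek water. Its portal values were 0.15, 0.084 and -0.48 and its upstream values 0.40, 0.0032 and -0.25. In each of the other 3 waters, exposure 1 was its highest and exposure 3 its lowest, an order its tailings values did not share. The arrays of a pair had opposite signs in 14.8% of pairs.

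Profile group 3, 17 members, held both members of highest tailings mean. Every one of its members was above 0 on all 6 tailings arrays, and the exposure medians were 0.69, 0.42 and 0.66. Little Grizzly Creek medians were -0.23, -0.50 and 0.069, and all 17 members were below 0 in exposure 2. Portal medians were 0.086, -0.23 and 0.67, and upstream medians 0.097, 0.020 and 0.47, so exposure 3 was the high one in both waters, with all 15 and all 17 measured members above 0.

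P2DF12, the member of highest tailings mean, had 1.40, 1.502 and 1.47 in tailings water and 0.026, -0.32 and 1.01 in Little Grizzly Creek water. In portal water it had -0.31, 0.14 and 0.33, and in upstream water 0.69, 0.38 and 0.87. Its tailings values had an SD of 0.052 (n = 3) and lay above all 9 others, of which Little Grizzly Creek exposure 3 and upstream exposure 3 were the highest. Its upstream mean of 0.65 was above 0 in 3 of 3 exposures and did not pass the limma test (adjusted p = 0.174).

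P13AE5 came next by tailings mean, with 1.58, 1.03 and 1.64 in tailings water and 0.074, -0.25 and 0.99 in Little Grizzly Creek water. Its portal values were -0.15, 0.093 and 1.20 and its upstream values 0.67, 0.33 and 0.91. Here portal exposure 3 exceeded tailings exposure 2, so tailings and portal overlapped. The upstream mean of 0.64 had an adjusted p of 0.294 in limma. P6BE5 had 1.76, 1.09 and 1.37 in tailings water and 0.26 and -0.38 in Little Grizzly Creek exposures 1 and 2, with exposure 3 left blank because 1 of its arrays had no value. Its tailings minus Little Grizzly Creek difference of 1.47 was the second largest of the members. The remaining array of Little Grizzly Creek exposure 3 had 0.74, which the difference leaves out.

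Profile group 4, 13 members, had tailings medians of 0.38, 0.96 and 0.67 and Little Grizzly Creek medians of -0.30, -0.033 and 0.35. Portal exposure 2 stood out at 0.56, with all 13 members above 0, against -0.027 and -0.048 in portal exposures 1 and 3. Upstream medians were -0.065, -0.082 and 0.044. This group held both members of highest portal mean. P1BG5 had 0.32, 0.53 and 0.64 in tailings water, -0.19, 0.0098 and 0.59 in Little Grizzly Creek water, and 0.23, 0.79 and 0.48 in portal water. Its portal mean of 0.50 was as high as its tailings mean of 0.50 and did not pass the test (limma adjusted p = 0.113). P2BF8 had 0.58, 1.11 and 0.56 in tailings water, -0.41, -0.092 and 0.26 in Little Grizzly Creek water and 0.58, 0.74 and 0.046 in portal water. Its portal mean of 0.45 had a limma adjusted p of 0.150.

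The largest difference between tailings and Little Grizzly Creek belonged to A5C9. Its size came in large part from Little Grizzly Creek exposure 3, though tailings lay above Little Grizzly Creek in each number. This feature had 0.95, 1.27 and 0.013 in tailings water and -0.53, 0.28 and -3.16 in Little Grizzly Creek water, for a difference of means of 1.88. In exposures 1 and 2, A5C9 had -1.38 and -0.53 in portal water and -1.29 and 0.53 in upstream water. Exposure 3 was blank in both waters because 1 of its arrays had no value. The remaining array of exposure 3 had -3.37 in portal and -2.73 in upstream water, so low exposure 3 values were not limited to Little Grizzly Creek. A5C9 belonged to a group of 6 members whose medians were low in exposures 1 and 3 of portal and upstream water, although 1 of the 6 was above 0 in upstream exposure 1. In portal water that group had medians of -0.97, 0.12 and -1.27, and in upstream water -1.04, 0.44 and -0.97. Its medians in tailings water were 0.91, 0.60 and 0.21, all above the Little Grizzly Creek medians of the same number, 0.18, 0.31 and -0.22.

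Among members with all 3 exposures, those of lowest portal or upstream mean were in this same group of 6. P3CB9 had 0.71, 1.04 and 0.16 in tailings water and 0.055, 0.38 and -0.13 in Little Grizzly Creek water, against -1.31, 0.10 and -1.98 in portal and -1.76, 0.42 and -1.18 in upstream water. Exposure 2 was above 0 in all 4 waters, and exposures 1 and 3 were far below 0 in portal and upstream water. Its portal mean of -1.06 had a limma adjusted p of 0.185 and its upstream mean of -0.84 one of 0.365. P2CF1 had portal values of -0.89, 0.25 and -1.54, with a mean of -0.73 and a limma adjusted p of 0.244. P13BB5 had upstream values of -1.17, 0.53 and -0.97, with a mean of -0.54 and a limma adjusted p of 0.457. In these features the spread between exposures, with exposure 2 against the other two, was about as large as the mean or larger.

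**Figure D5:**
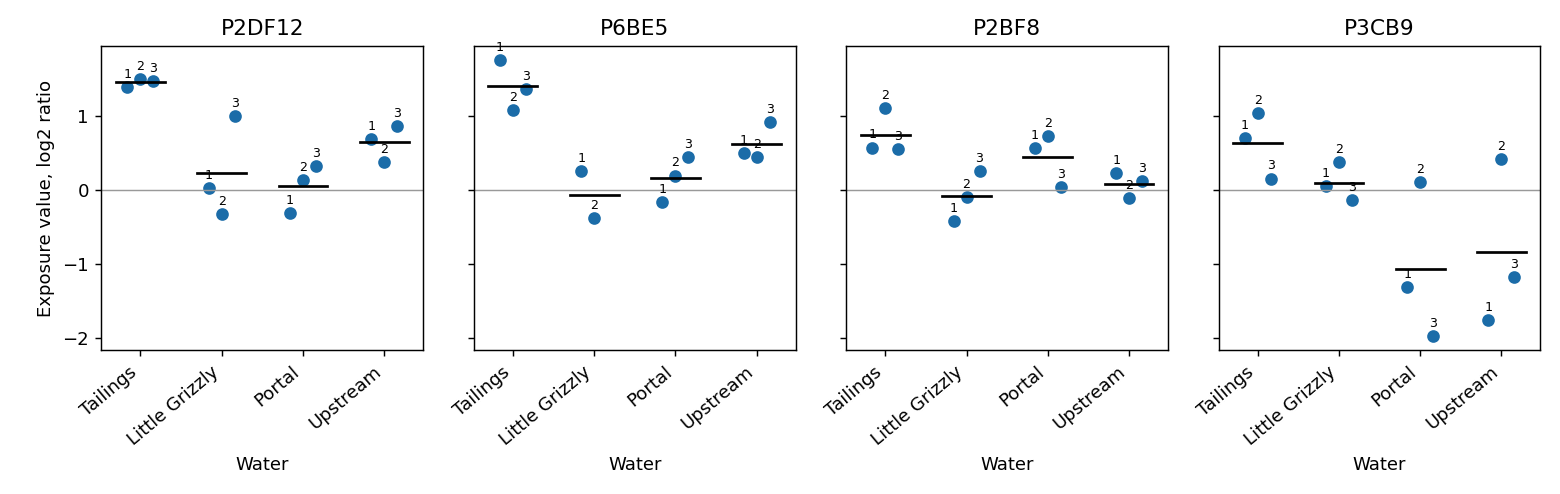
Exposure values (log2 ratio, vertical axis) of P2DF12, P6BE5, P2BF8 and P3CB9 in each water, with the exposure number above each point and a bar at the mean. P2DF12 has 3 close tailings values above all its other values, the highest of which is Little Grizzly Creek exposure 3 at 1.01, and P3CB9 has its exposure 2 above 0 in all 4 waters.

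Portal and upstream values were not used by the rule, so there the members could be tested. Over the 155 members, portal means had a median of -0.087 and were below 0 in 98, and upstream means had a median of -0.076 and were below 0 in 100. All tested features had medians of -0.0049 in portal and -0.019 in upstream water, and the comparison set had 0.19 and 0.045. Exposure medians of the members were -0.16, -0.061 and -0.30 in portal water and -0.060, -0.078 and -0.23 in upstream water. Of 127 members with all 3 portal exposures, 58 (45.7%) were below 0 in each, against 23.0% of tested features. Of 139 with all 3 upstream exposures, 59 (42.4%) were below 0 in each, against 22.0%.

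Most members below 0 in every exposure of these waters were in profile group 1. The 93 members outside it had a median portal mean of 0.049 and a median upstream mean of 0.047, and only 3 of 66 were below 0 in all portal exposures and 7 of 81 in all upstream exposures. Single site means below 0 were also found outside group 1, in 40 of the 98 members for portal and in 39 of the 100 for upstream water. Within group 1, the medians of the site means were -0.36 in portal water and -0.26 in upstream water. Since group 1 was formed on these same arrays, its portal and upstream values are a description.

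In portal water against control, limma called 0 of 6504 features at an adjusted p of 0.05 (0.0%), members included. The smallest adjusted p, 0.0717, was shared by several tied features, among them the members P13AB11 and P5BB1. At an unadjusted p of 0.05, limma counted 58 members, 52 of them lower, where 22.0% of all features were counted and 10.8% were lower. Of those 52, 51 were in group 1. This count was of dye-averaged values. On the arrays with exposed animals in Cy5 alone, limma counted 29 of group 1 lower at the same unadjusted p. On those with exposed animals in Cy3 alone, it counted 2 lower and 1 higher. Exposure numbers deviated together in portal and upstream water, and with the number as a block, limma called 1087 features in portal water (16.7%). Of these, 640 were lower (9.84%), and the members called were 50, 47 of them lower and 46 of those in group 1. The block treats the 3 exposure numbers as fixed. With the number as a random effect, an alternative added after the data were seen, 0 features were called. Without portal exposure 2, 484 of 4356 features (11.1%) and 35 members passed, 34 of the members lower (6.08% of features were). Leaving it out also removed features with a blank in portal exposure 1 or 3. With portal exposure 2 kept and all 12 exposure values required, 12 members of group 1 were called lower. The effect of this exposure and that of the changed feature set were therefore not told apart.

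Upstream water against control gave 5 called features of 6504 (0.0769%), all lower, and none was a member. The smallest adjusted p among members was 0.119 in limma. At an unadjusted p of 0.05, 53 members were counted, where 16.7% of all features were, and 47 of those members were lower, where 8.83% of all features were lower. All 47 were in group 1, and this too was a count of dye-averaged values. At the same unadjusted p, limma counted 5 of group 1 lower on the Cy5 arrays alone and 0 on the Cy3 arrays alone. With exposure number as a block, limma called 458 features (7.04%), 285 of them lower (4.38%), and 5 members, 4 of them lower. With the number as a random effect it called 2 features and 0 members.

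Portal against upstream water showed no called difference among the members. The limma contrast called 0 of 6504 features at an adjusted p of 0.05, and at an unadjusted p of 0.05 it counted 199 features (3.06%). Of these, 4 were members, all higher in portal water, where 2.35% of features were. Portal values were all above the upstream values in 2 of 127 members and all below in 3, against 3.79% and 4.16% of tested features. Among members with all 3 exposures of both waters, the highest differences were 0.49 in P5BD7, with 0.090, 0.074 and 1.12 in portal and -0.39, -0.18 and 0.38 in upstream water, and 0.37 in P2BF8. The lowest were -0.60 in P2DF12 and -0.48 in P7DA6, which had -0.57, 0.27 and -0.69 in portal and 0.14, 0.29 and 0.020 in upstream water. Each of these differences had an SE of 0.23 to 0.38 and a limma adjusted p of 1.00. An effect of that size may therefore exist without having been called.

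Tailings water can also be set beside portal and upstream water, with the choice of members fixing the tailings side. Tailings exposures were all above the portal exposures in 106 of 155 members, where 15.6% of tested features had this order, and all above the upstream exposures in 106, where 17.8% did. The limma contrasts called 62 members higher in tailings than in portal water (3.38% of features) and 67 higher in tailings than in upstream water (4.98%). Nothing is read from these counts.

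The members' exposures also varied together in ways that the site did not set. Over the members, tailings exposure 1 correlated with tailings exposure 3 at 0.70 and with tailings exposure 2 at -0.36 (n = 155 features each), while over all tested features these correlations were 0.46 and 0.58. Highest tailings values fell in exposure 2 for 57 of 62 members of group 1 and for none of the 29 of group 2. Portal exposure 3 correlated with Little Grizzly Creek exposure 2 at -0.69 over 128 members and at -0.38 over all features. These correlations run across features of the same arrays, which are not independent. The choice of features by tailings values also shapes those among tailings exposures.

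In some exposures the arrays of a pair correlated far less over the members than over all features. Over members the correlation was 0.087 in tailings exposure 3, -0.074 in Little Grizzly Creek exposure 1 and 0.069 in portal exposure 3. Over all features no pair was below 0.616. These correlations were not split by profile group. Across all pairs, members outside group 1 had a median absolute difference of 0.155 between arrays, against 0.178 in all tested features. Their signs were opposite in 18.8% of pairs, against 30.6%. In group 1 the values were 0.528 and 55.4%. Over all members together they were 0.247 and 33.8%, both above those of all tested features, and in the comparison set 0.184 and 11.0%. Group 1 was formed on the single arrays, and no such group was taken out of all tested features. The values of the members outside group 1 are therefore a description. Blanks were most frequent in portal exposure 3, in 27 members (17.4%, against 31.8% of tested features), and in Little Grizzly Creek exposure 3, in 16 members (10.3%, against 19.5%). A total of 114 members had all 12 exposure values. In the other members, a site mean may rest on 2 exposures, as for P6BE5.

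The identifiers of the members were unevenly spread. They began with P in 144 members and with A in 11, so that 92.9% were P features, against 83.3% of the comparison set and 71.9% of tested features. Outside group 1 the share was 88.2% (82 of 93 members). Members were 3.08% of tested P features and 0.602% of tested A features. Every member of group 1 and of group 3 was a P feature, whereas the group of 6 around P3CB9 held 3 of each. Among the 13 plate numbers of the P series, the members' share ran from 1.10% (4 of 363 in number 7) to 4.50% (15 of 333 in number 1). The sources used here do not say what the letters stand for.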

How the data were processed

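The authors deposited 1 log ratio per feature and array, read here as log2, since the base is not stated. Scanning, background correction, normalisation and filtering are not given in the sources used here. Both arrays of each exposure already ran the same way (correlations of 0.616 to 0.910). The likely direction is exposed over control. The labels give the exposed animals as channel 2, with Cy5 on the first array of a pair, and do not state the direction. Of 132 array pairs of one orientation, 5 correlated below -0.3 (lowest -0.376), so single signs are not fully settled, and results were also computed with upstream exposure 2 turned. A blank on either array made the exposure blank.

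The limma package (3.58.1, R 4.3.3) estimated the mean of each site from the 12 exposures by lmFit and eBayes, on 6504 features, with Benjamini-Hochberg adjustment and a threshold of 0.05, and was checked on simulated data. The tests against 0 leave out the control animals' own spread if control RNA was shared between arrays, which the labels do not say, and in that case comparisons with control share it. Per the labels, exposures are biological replicates, and their number (3 per site) limits the precision. Exposures 1, 2 and 3 of portal and upstream water departed together from the means of their waters (r = 0.482, 0.587 and 0.812). So did those of tailings and Little Grizzly Creek water (r = 0.497, 0.514 and 0.390), so the numbers were taken to pair these samples. For tailings the r were 0.119, 0.153 and -0.064 with portal and -0.215, 0.571 and 0.249 with upstream water. For Little Grizzly Creek they were 0.166, 0.514 and 0.557 with portal and -0.035, 0.590 and 0.638 with upstream water. The block nevertheless fits exposure-number effects shared by all 4 sites, which some pairs of waters meet poorly. Features were joined into profile groups by average linkage on 1 minus the correlation over the 24 arrays (scipy 1.17.1).

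The members, and every list and test, were chosen with earlier results of these data known. Named features are at most 2 high and 2 low members per comparison, by tailings mean, tailings minus Little Grizzly Creek, and portal, upstream or portal minus upstream mean among members with all 3 exposures, since none passed the threshold. P3AD9 and P1BH3 were added afterwards. Gene lists could not be tested, as 0 identifiers matched the 28335 genes of the RefSeq table.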

Additional observations from a re-analysis of the deposited data

Results flagged for a closer look

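Some differences between waters drew attention because every exposure of one water had a members' median above 0 and every exposure of the other a median below 0. In none of them was the difference of medians tested, and the tailings and Little Grizzly Creek sides were fixed in part by the choice of members. Averaged over 3 exposures, the members' median was 0.703 higher in tailings than in portal water and 0.652 higher in tailings than in upstream water. It was 0.308 higher in Little Grizzly Creek than in portal water and 0.257 higher in Little Grizzly Creek than in upstream water. The last pair of values includes Little Grizzly Creek means that the rule only bounded from above. The sign pattern did not hold in the members outside group 1. Their medians in exposures 1, 2 and 3 were 0.023, 0.091 and 0.00075 in portal water and 0.11, -0.0081 and -0.0063 in upstream water. Groups had 3 exposures each, too few for a single exposure to be tested as an outlier.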

How the results depend on the processing

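The number of members was 304 with a tailings threshold of 0.3, 92 with 0.5 and 101 on the first arrays alone, against 155. It was 147 on the second arrays, 108 after quantile and 146 after scale normalisation, of which 107 and 135 were members of the 155. The median portal mean was -0.214 over members with all 12 values and 0.049 outside the largest profile group, where the upstream median was 0.047. Leaving out 1 exposure gave portal medians of -0.167 to -0.093 and upstream medians of -0.145 to -0.053. With a replicate block, portal calls were 1087 (50 members) and upstream calls 458 (5 members), and portal against upstream and tailings against Little Grizzly Creek stayed at 0. With all 12 values required, calls were 170 (12 members) in portal and 18 in upstream water. Second arrays alone gave 22 and 9. Leaving out 1 exposure gave 0 to 484 portal calls (0 to 35 members) and 0 to 123 upstream calls (0 members), with 484 without portal exposure 2 and 123 without portal exposure 3. Upstream calls were 324 after quantile normalisation (5 members), 331 after scale normalisation, 2 with exposure number as a random effect, and 0 on the first arrays alone, with upstream exposure 2 turned, or with portal and upstream fitted alone. The cause was not tested. Of 249 alternative values of the named features, 245 kept direction and side of the threshold and 4 newly passed it. None had passed it in the main fit, and leaving out an exposure of another water does not change a site mean. The count is therefore no measure of how steady these means were. Leaving out 1 exposure gave P13BB5 upstream means of -1.07 to -0.22. For P5BD7 it gave portal minus upstream differences of 0.15 to 0.72. Ratios of dim spots could not be told from those of bright ones, since no channel signals were analysed.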
